A study of Mus musculus with 4 samples.

Results

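Translation factors are the proteins that bring messenger RNA, initiator tRNA and the ribosome together (initiation factors, symbols starting with Eif) and move the ribosome along the message (elongation factors, symbols starting with Eef). All genes of both name groups were followed in whole heart tissue of mice, wild type or heterozygous, leaving out the eIF2 kinases (Eif2ak). Only probe sets whose platform annotation gave 1 gene symbol were used. This gave 45 genes on 62 probe sets, among 8251 named genes on the array. The mice were adult males of 8 to 16 weeks on a 129/Black Swiss background, and both genotypes shared that background. Total RNA came from pools of 5 hearts, with 2 pools for each genotype and 1 array for each pool. The labels do not say that the pools held different animals, so the p-values measure the spread between these 4 samples, and a pool hides the spread between single hearts. Signals are the linear intensities that the authors deposited, and changes are differences of mean log2 signal, heterozygous minus wild type, with limma's standard error (SE). In whole tissue, fewer cells of a type and less RNA in each cell cannot be told apart.

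Initiation starts when eIF2 carries the initiator tRNA to the small ribosomal subunit. The scaffold eIF3 and the scanning factors eIF1, eIF1A and eIF5 bind there as well. The eIF4 group recognises the cap of the message and unwinds its leader, and 4E-binding proteins hold back the cap-binding subunit. During elongation, eEF1A delivers each aminoacyl-tRNA, the eEF1B subunits recharge eEF1A with GTP, and eEF2 shifts the ribosome by a codon. Adult heart muscle, skeletal muscle and neurons are known for a change from the ubiquitous eEF1A1 to its isoform eEF1A2.

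Of the 45 genes, 37 had at least 1 probe set above the filter on dim signals and were tested, and each was represented by its brightest tested probe set. In the heterozygous pools 7 of them rose, 10 fell and 20 did not pass (limma, Benjamini-Hochberg adjusted p under 0.05 over all tested probe sets). The genes that fell made up 27.0% of those tested, against 19.5% of all 5692 tested genes. Those that rose made up 18.9%, against 19.5% of all tested genes. In 26 of the 37 genes (70.3%) both heterozygous pools lay on the same side of both wild-type pools, close to the 70.7% found over all tested genes. The median log2 change of the 37 was -0.09, with quartiles of -0.51 and 0.29, against a median of 0.02 and quartiles of -0.46 and 0.45 over all tested genes. Among those that passed, Eef1a2, Eef1b2 and Eif2s2 moved at least 2-fold, Eif2s2 on its brighter probe set only.

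**Figure D1:**
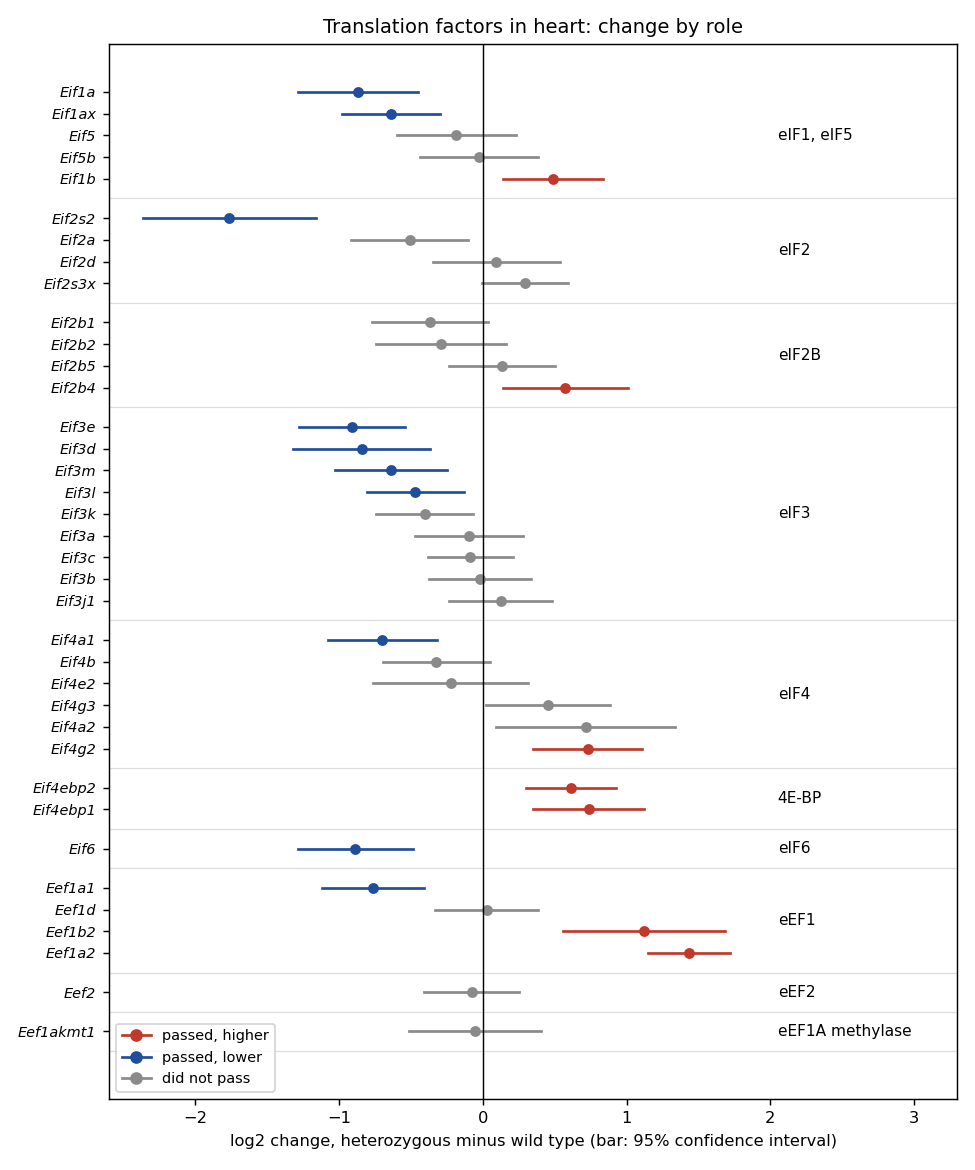
Log2 change (heterozygous minus wild type, n = 2 pools each) of the 37 tested translation factor genes on the horizontal axis, grouped by role, with 95% confidence intervals from limma as bars. Passed genes are coloured: 7 lie to the right of 0 and 10 to the left, and all 4 eIF3 subunits that passed lie to the left.

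The paralogues that encode elongation factor 1 alpha moved in opposite directions. Eef1a1, the ubiquitous form, had signals of 105371 and 80423 in wild type, against 57745 and 50957 in the heterozygous pools. Both heterozygous pools lay below both wild-type pools. Mean signals (± SD, n = 2) were 92897 ± 17641 and 54351 ± 4800, so that Eef1a1 fell 1.70-fold (log2 change -0.76, SE 0.16, limma adjusted p = 0.00520). Eef1a2, the form of muscle and neurons, had signals of 26463 and 23765 in wild type, against 67298 and 68373 in the heterozygous pools. The pools of each genotype lay close together and far from those of the other. Mean signals (± SD, n = 2) were 25114 ± 1908 and 67835 ± 760, a 2.71-fold rise (log2 change 1.44, SE 0.13, limma adjusted p = 7.1e-05). The change of Eef1a2 minus that of Eef1a1 was 2.20 on the log2 scale, a 4.59-fold shift of one isoform against the other (exact permutation test over pools, two-sided p = 0.33, the smallest that 2 pools against 2 can give). A factor common to all probe sets of an array leaves this difference as it is. Eef1a1 has many processed copies in mammalian genomes, and a probe set may also detect their transcripts. The Eef1a1 call ended without heterozygous pool 1 (log2 change -0.85, limma adjusted p = 0.0509) or heterozygous pool 2 (-0.67, limma adjusted p = 0.0911).

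**Figure D2:**
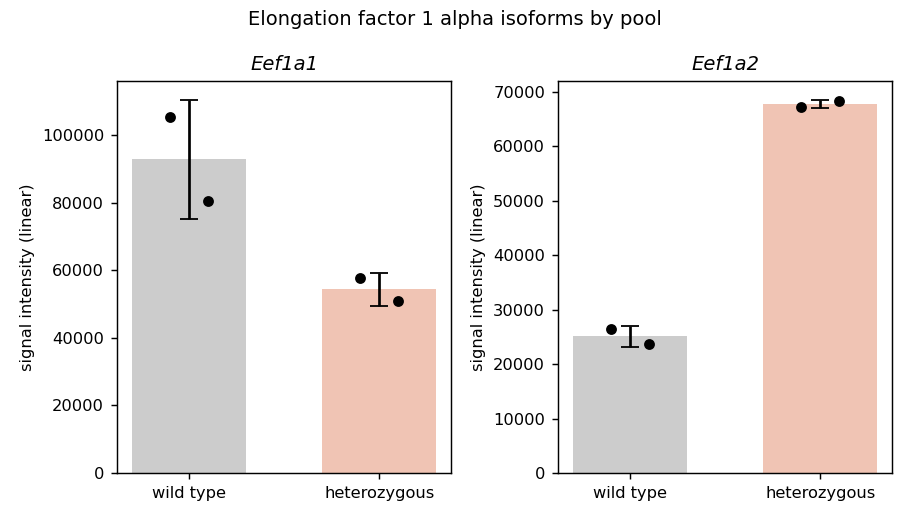
Linear signal intensity (vertical axis, starting at 0) of Eef1a1 (left) and Eef1a2 (right) by genotype. Bars are means, error bars are SD over 2 pools and points are pools: Eef1a1 ran from 80423 to 105371 in wild type and from 50957 to 57745 in heterozygous pools, and Eef1a2 from 23765 to 26463 and from 67298 to 68373.

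The sequences upstream of the RefSeq starts of these paralogues are shown because their transcripts moved apart. The 250 bases before the annotated start were read on the transcript strand from GRCm38.p6. Those of Eef1a1 lie at chr9:78481725-78481974 on the minus strand, and those of Eef1a2 at chr2:181157016-181157265 on the minus strand. Capitals mark the GC box, searched as GGGCGG or its complement CCGCCC.
Eef1a1: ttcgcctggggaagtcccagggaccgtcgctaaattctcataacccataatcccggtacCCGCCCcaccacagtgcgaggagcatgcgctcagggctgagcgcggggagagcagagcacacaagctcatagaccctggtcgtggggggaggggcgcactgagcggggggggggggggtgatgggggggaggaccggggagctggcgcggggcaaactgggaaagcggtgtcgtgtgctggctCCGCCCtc
Eef1a2: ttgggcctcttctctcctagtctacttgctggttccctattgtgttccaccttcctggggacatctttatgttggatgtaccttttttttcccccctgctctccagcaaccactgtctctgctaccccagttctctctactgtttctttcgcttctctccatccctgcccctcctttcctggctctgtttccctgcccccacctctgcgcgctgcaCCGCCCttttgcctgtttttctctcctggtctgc
The Eef1a1 sequence held 68.0% G and C and the Eef1a2 sequence 54.0%, against a median of 52.4% over the 32851 RefSeq promoter windows of the same length. The Eef1a1 window held 2 GC boxes and the Eef1a2 window 1, and 32.7% of all windows held at least 1. Neither window held the TATA box letters TATAAA or TTTATA (present in 12.4% of windows) or the E-box CAGCTG (13.0%). Other spellings of a TATA box and bases after the annotated start were not searched. These matches describe the letters of the windows only.

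The other elongation factors included Eef1b2, which encodes the nucleotide exchange subunit of eEF1B. It had signals of 396.1 and 491.8 in wild type, against 878.1 and 1047 in the heterozygous pools. Eef1b2 rose 2.17-fold on a probe set whose name carries the letter r (log2 change 1.12, SE 0.25, limma adjusted p = 0.00770). Such letters mark designs that did not meet every rule of probe choice or may share probes with related transcripts. Its other probe set was too dim to be tested, with signals of 203.4, 282.9, 215.9 and 60.2. The Eef1b2 call ended without heterozygous pool 2 (log2 change 0.99). Eef1d, another eEF1B subunit, had overlapping pools and a log2 change of 0.03 (95% confidence interval -0.33 to 0.39). Eef1g, the structural eEF1B subunit, was near or under the signal floor of 36.4 on its only probe set used here, with signals of 79.1, 1.4, 58.0 and 54.4. That probe set alone cannot show how strongly Eef1g is expressed in these hearts.

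Eef2, the translocation factor, had overlapping signals, 25714 and 20643 in wild type against 21761 and 21911 in the heterozygous pools. Its log2 change was -0.08 (95% confidence interval -0.41 to 0.25, limma adjusted p = 0.709). The sign turned with arrays at a common median (0.10) and without wild-type pool 1 (0.081). With arrays centred on the sarcomere genes of heart muscle, Eef2 had a log2 change of -0.74 and passed as lower (limma adjusted p = 0.00132). Eef2k, the kinase that inactivates eEF2, was too dim to be tested. Its signals of 298.5 and 212.5 in wild type and of 142.2 and 128.4 in the heterozygous pools did not overlap. Eef1akmt1, a methyltransferase of eEF1A, had a log2 change of -0.05 (95% confidence interval -0.51 to 0.40).

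Among the factors that select the start codon, 2 of 5 tested genes fell and 1 rose (19.5% of all tested genes fell and 19.5% rose). Eif1a and the X-linked Eif1ax both encode eIF1A, which binds the decoding site of the small subunit. Eif1a fell 1.83-fold, from signals of 2172 and 1918 to 1220 and 1024 (log2 change -0.87, SE 0.18, limma adjusted p = 0.00603). Its dimmer probe set had a log2 change of -0.62 (limma adjusted p = 0.0985). Eif1ax fell 1.56-fold on its brighter probe set, from 6040 and 5698 to 4032 and 3515 (log2 change -0.64, SE 0.15, limma adjusted p = 0.00986). The other Eif1ax probe set had a log2 change of 0.22 (limma adjusted p = 0.291), so its probe sets differed in direction. Without heterozygous pool 2 the calls of Eif1a (-0.74) and Eif1ax (-0.54) ended, and the Eif1ax call also ended with arrays at a common median (-0.46).

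Eif1b, which encodes a close relative of eIF1, rose 1.40-fold, from 6691 and 5453 to 8270 and 8657 (log2 change 0.49, SE 0.15, limma adjusted p = 0.0337). That call ended under quantile normalization (0.41), under cyclic loess (0.35), without limma's mean-variance trend (limma adjusted p = 0.0912) and when wild-type pool 2 (0.34), heterozygous pool 1 (0.52) or its counterpart pool 2 (0.45) was left out. Eif5, the factor that makes eIF2 hydrolyse GTP, had a log2 change of -0.18 (95% confidence interval -0.60 to 0.23). Eif5b, which joins the subunits, had one of -0.02 (95% confidence interval -0.43 to 0.38), and its second probe set one of 0.10.

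Of the eIF2 subunits, Eif2s2 (beta) had the largest decrease of all translation factors, on the probe set that was brighter by mean over all pools. Its brighter probe set had signals of 1403 and 2356 in wild type, against 579.5 and 496.5 in the heterozygous pools, a 3.39-fold decrease (log2 change -1.76, SE 0.27, limma adjusted p = 0.00118). Its dimmer probe set, however, had signals of 430.0 and 442.4 against 495.9 and 708.5 (log2 change 0.44, limma adjusted p = 0.265). The estimates of its probe sets thus had opposite signs. The probe set that fell was the brighter one only through wild type. In the heterozygous pools its mean signal was 538, against 602 for the other probe set. Eif2s3x, the X-linked gamma subunit, had signals of 10908 and 11495 against 14132 and 13302. These pools did not overlap, but the log2 change of 0.29 did not pass (95% confidence interval -0.01 to 0.59, limma adjusted p = 0.111). Eif2s3y, its Y-linked counterpart, was under the floor of 36.4 in every pool, on a probe set with the letter f. That probe set alone cannot show whether the gene is silent in these male hearts. The alpha subunit Eif2s1 was not analysed here.

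Eif2a and Eif2d encode factors that can deliver initiator tRNA without eIF2. Eif2a had signals of 1804 and 1689 against 1329 and 1136, without overlap, and just missed the threshold (log2 change -0.51, SE 0.18, limma adjusted p = 0.0522). The log2 change of Eif2d was 0.09 (95% confidence interval -0.35 to 0.54).

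The exchange factor eIF2B recharges eIF2 with GTP, and 1 of its 4 tested subunit genes rose (19.5% of all tested genes rose). Eif2b4 (delta) rose 1.49-fold on a probe set with the letter s, its only tested one, from 1821 and 2482 to 2951 and 3400 (log2 change 0.58, SE 0.19, limma adjusted p = 0.0426). This call ended when any pool but wild-type pool 2 was left out, with 0.35 lacking wild-type pool 1, 0.68 lacking heterozygous pool 1 and 0.47 lacking heterozygous pool 2. It also ended without the mean-variance trend (limma adjusted p = 0.0893) and with the dimmest 20% in place of 40% left out (limma adjusted p = 0.0559). Eif2b1 (alpha) and Eif2b2 (beta) had log2 changes of -0.37 (limma adjusted p = 0.133) and -0.29 (limma adjusted p = 0.282). Eif2b5, the catalytic epsilon subunit, had one of 0.13 (limma adjusted p = 0.555).

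The eIF3 scaffold fell in 4 of 9 tested subunit genes and rose in none, with a median log2 change of -0.40. Over all tested genes 19.5% fell, 19.5% rose and the median was 0.02. Eif3e fell 1.88-fold on its tested probe set, from 2954 and 3370 to 1669 and 1687 (log2 change -0.91, SE 0.16, limma adjusted p = 0.00266). Its other probe set was too dim to be tested and went the other way without overlap. There the signals were 77.8 and 178.8 in wild type, against 227.3 and 212 in the heterozygous pools. Eif3d, a subunit that can itself bind caps, fell 1.79-fold, from 6384 and 5181 to 3901 and 2637 (log2 change -0.84, SE 0.21, limma adjusted p = 0.0125). Eif3m fell 1.56-fold, from 8495 and 10888 to 6797 and 5608 (log2 change -0.64, SE 0.17, limma adjusted p = 0.0178). On the tested probe set of each of these genes, both heterozygous pools lay below both wild-type pools.

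Eif3l fell 1.38-fold, from 15076 and 12904 to 10902 and 9332 (log2 change -0.47, SE 0.15, limma adjusted p = 0.0358). Eif3k had signals of 9199 and 7907 against 6156 and 6748, without overlap (log2 change -0.40, limma adjusted p = 0.0579). The subunits d, e, k and l assemble next to each other in the complex. The subunits Eif3a, Eif3b and Eif3c had log2 changes of -0.10, -0.02 and -0.09, and the loosely bound Eif3j1 had one of 0.12. The tests of these 4 genes gave limma adjusted p-values from 0.577 (Eif3j1) to 0.938 (Eif3b). Eif3f was too dim to be tested. The Eif3d call ended without wild-type pool 1 (-0.69) or heterozygous pool 2 (-0.56). The Eif3l call ended when wild-type pool 1 (-0.36) or either heterozygous pool (-0.58 lacking pool 1, -0.36 lacking pool 2) was left out, and with a common median (-0.29). That of Eif3m ended when wild-type pool 2 (-0.46) or either heterozygous pool (-0.78 lacking pool 1, -0.50 lacking pool 2) was left out, and with a common median (-0.46). Without the mean-variance trend the calls of Eif3l (limma adjusted p = 0.103) and Eif3m (limma adjusted p = 0.0613) ended too.

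In the eIF4 group, Eif4a1 fell, Eif4g2 rose and 4 tested genes did not pass (19.5% of all tested genes fell and 19.5% rose). Eif4a1, the main form of the helicase eIF4A in dividing cells, fell 1.62-fold on a probe set with the letter r, from 2218 and 2435 to 1492 and 1377 (log2 change -0.70, SE 0.17, limma adjusted p = 0.0110). This call ended without wild-type pool 2 (-0.63) or heterozygous pool 2 (-0.64). Eif4a2, its paralogue, had signals of 11249 and 21669 in wild type, against 22324 and 29494 in the heterozygous pools. The wild-type pools of Eif4a2 differed widely, and the log2 change of 0.72 did not pass (SE 0.27, limma adjusted p = 0.0678).

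Eif4g2, which encodes a scaffold related to eIF4G without a cap-binding partner site, rose 1.66-fold, from 2019 and 2436 to 3860 and 3498 (log2 change 0.73, SE 0.17, limma adjusted p = 0.00900). Its call ended without heterozygous pool 1 (0.66). Eif4g3, a scaffold that does bind eIF4E, had a log2 change of 0.45 (limma adjusted p = 0.0888), and Eif4g1 was not analysed here. Eif4b, which stimulates the helicase, had a log2 change of -0.32 on its brightest probe set, which carries the letter g (limma adjusted p = 0.151). On a probe set with the letter r Eif4b fell 2.42-fold (log2 change -1.27, SE 0.19, limma adjusted p = 0.00101), so its tested probe sets shared a direction but not a call. The cap-binding gene Eif4e was too dim to be tested, with signals of 229.1, 265.1, 158.4 and 251.8. Its relative Eif4e2 had a log2 change of -0.22 (95% confidence interval -0.76 to 0.32).

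The genes of 4E-binding proteins, which sequester eIF4E until mTOR phosphorylates them, both rose (19.5% of all tested genes rose). Eif4ebp1 had signals of 2740 and 2245 in wild type, against 4429 and 3849 in the heterozygous pools, a 1.67-fold increase (log2 change 0.74, SE 0.17, limma adjusted p = 0.00932). Eif4ebp2 had signals of 6168 and 5685 against 9130 and 9003 on its brightest probe set, a 1.53-fold increase (log2 change 0.61, SE 0.14, limma adjusted p = 0.00793). A dimmer Eif4ebp2 probe set, whose pools differed widely within each genotype, had a log2 change of -0.07 (SE 0.59, limma adjusted p = 0.933). The calls of Eif4ebp1 (0.63) and Eif4ebp2 (0.60) ended without heterozygous pool 1, and that of Eif4ebp2 also without heterozygous pool 2 (0.62). Eif4enif1, which carries eIF4E into the nucleus, was too dim to be tested. Its signals were 50.1 and 21.8 in wild type, against 127.5 and 252.3 in the heterozygous pools.

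Eif6, which keeps free large ribosomal subunits from joining, fell 1.85-fold, from signals of 2490 and 2695 to 1543 and 1273 (log2 change -0.89, SE 0.18, limma adjusted p = 0.00446). Each pool left out in turn kept this call, as it did for Eef1a2, Eif2s2 and Eif3e. The remaining untested genes were Eif4h, a cofactor of the helicase with signals of 37.5 to 127.8, and Eif5a, a factor that eases peptide bond formation, with signals of 72.8 to 230.4. Both had overlapping pools.

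**Figure D3:**
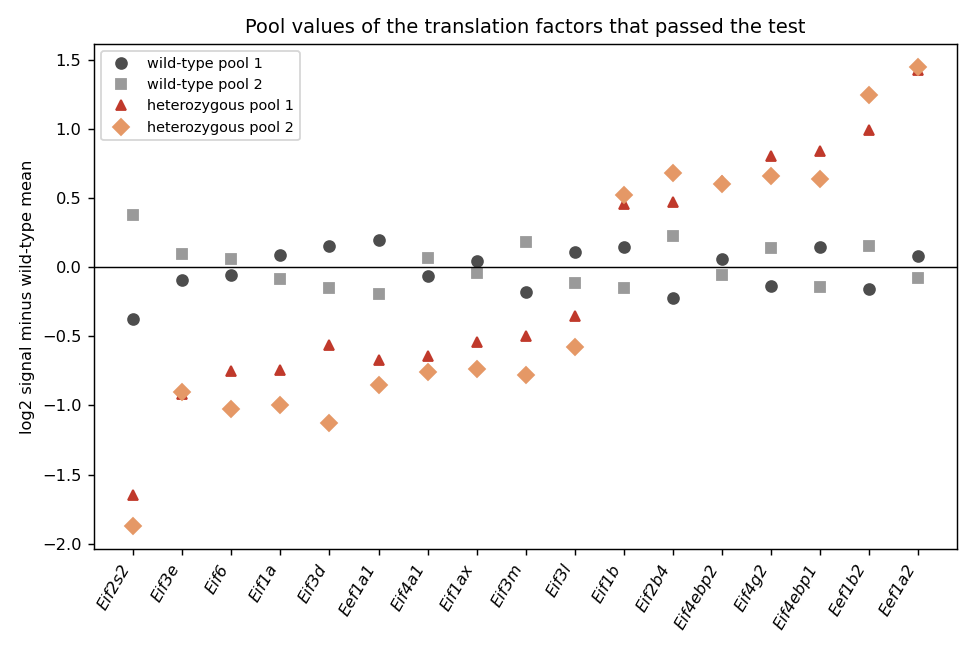
Log2 signal minus the mean of the wild-type pools (vertical axis) for each pool of the 17 genes that passed, ordered by change. In every one of these genes the heterozygous pools (triangles, diamonds) lie on one side of both wild-type pools (circles, squares). The genes were picked by the test on these same values, and 70.7% of all tested genes had pools without overlap.

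The messages of several translation factors are known to begin with a tract of pyrimidines (a 5′ TOP), which puts their translation under control of mTOR. From a list of 10 such genes, 7 were tested. On the brightest tested probe sets, Eef1a2 and Eef1b2 rose, Eef1a1 and Eif3e fell, and Eef1d, Eef2 and Eif4b did not pass. The listed genes thus shared no direction on these probe sets (median log2 change -0.08, against 0.02 over all tested genes). The Eef1b2 rise rests on a probe set with the letter r, and Eif4b fell on another probe set with that letter.

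Genes that act beside the factors were taken from 6 lists of translation genes, of which 72 genes were tested. Of these, 20 fell, 6 rose and 46 did not pass (19.5% of all tested genes fell and 19.5% rose), with a median log2 change of -0.15. Arrays shifted to a common median gave 8 lower and 10 higher calls instead. The cytosolic ribosomal proteins supplied 12 of the decreases among 24 tested genes, with no increase (median log2 change -0.41). The 4 with the smallest p were Rpl13a (3.19-fold), Rps19 (2.37-fold), Rpl10a (1.90-fold) and Rps3 (1.68-fold).

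Among kinases and the mTOR pathway, 3 of 13 tested genes fell and 2 rose, with a median log2 change of 0.20 (over all tested genes 19.5% fell, 19.5% rose and the median was 0.02). Pdcd4, which inhibits the helicase eIF4A, fell 3.20-fold (log2 change -1.68, SE 0.16, limma adjusted p = 1.0e-04). Pdpk1, an activator of Akt and S6 kinase, fell 2.26-fold, and Ppp1r15b, a phosphatase subunit that restores eIF2, fell 1.75-fold. Tsc2, which holds mTOR back, rose 2.14-fold (log2 change 1.10, SE 0.16, limma adjusted p = 8.8e-04), and Mknk2, a kinase of eIF4E, rose 1.87-fold.

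Of 9 tested genes of poly(A) binding, termination and recycling, Pabpc4 rose 1.80-fold while its paralogue Pabpc1 and the release factor gene Gspt1 fell 1.46-fold and 1.48-fold. Over all tested genes, 19.5% fell and 19.5% rose. Of 4 tested mitochondrial translation factors, 3 rose: Gfm1 (1.62-fold), Tsfm (1.44-fold) and Tufm (1.43-fold), the mitochondrial counterparts of eEF2, eEF1B and eEF1A. The cytosolic aminoacyl-tRNA synthetases, which load amino acids on tRNA, fell in 3 of 18 cases (Vars 1.71-fold, Farsa 1.64-fold, Qars 1.52-fold) and rose in none. They thus fell no more often than tested genes in general, with a median log2 change of -0.09 against 0.02. Hypusine and diphthamide are modifications of eIF5A and eEF2. None of the 4 tested genes on the list for their synthesis passed (Dohh, Dph5 and the polyamine genes Odc1 and Srm). Dph5 came nearest (log2 change -0.92, limma adjusted p = 0.053).

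Markers of other cells moved in the same pools, where 19.5% of all tested genes fell and 19.5% rose. Of 20 tested lymphocyte and thymus markers 19 fell and none rose, with a median log2 change of -2.95. Their summed signal was 165068 and 165308 in wild type, against 22478 and 21859 in the heterozygous pools. All 17 tested cell cycle genes fell (median log2 change -2.27). The 19 cell cycle genes on the array, tested or not, had a summed signal of 96617 to 101655 in wild type and 18199 to 18240 in heterozygous pools. Of 18 tested sarcomere genes of heart muscle 14 rose and none fell (median log2 change 0.66), and their summed signal went from 618433 to 686674 up to 994361 to 1009430. None of the markers in these 3 lists was at or under the floor in every pool. Fast skeletal muscle genes fell in 6 of 10 tested cases and rose in 1. Of the tested endothelial genes 8 of 10 rose, of lung epithelial genes 2 of 2, of erythroid genes 2 of 5, of macrophage genes 1 of 9 (1 fell) and of adipocyte genes 0 of 5 (1 fell). The macrophage and adipocyte counts lay near or under the shares over all tested genes. The part of these cell types in the changes of the translation factors was not tested.

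The split between rises and falls depended on how arrays were scaled to each other. With arrays shifted to a common median, 7 translation factors fell and 10 rose, and the median of all tested genes moved from 0.02 to 0.20. Centring arrays on the sarcomere list, which puts that list near 0 by construction and all tested genes at a median of -0.64, gave 28 lower calls and 1 higher call, that of Eef1a2. Under it Eif1b, Eif2b4 and Eif4ebp2 turned to -0.17, -0.084 and -0.045. Eef1b2 (0.46), Eif4ebp1 (0.08) and Eif4g2 (0.07) kept their sign but not their call. Without the filter on dim probe sets, 4 of the 17 calls were kept: Eef1a2, Eif3e, Eif4a1 and Eif4ebp2. The other 13 had limma adjusted p-values from 0.0558 to 0.194 there.

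**Figure D4:**
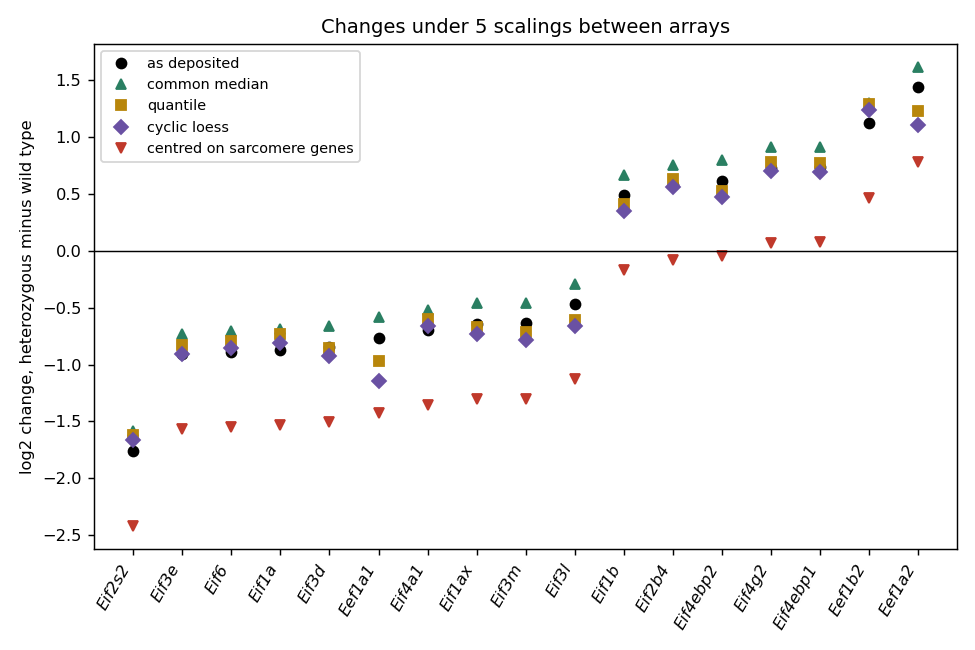
Log2 change (vertical axis, heterozygous minus wild type) of the 17 genes that passed, under 5 ways of scaling the arrays to each other. Points under centring on the sarcomere genes lie below the others throughout. Every gene that fell stays below 0 in all 5. Of those that rose, only Eif1b, Eif2b4 and Eif4ebp2 change sign, under that centring.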

How the data were processed

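Per the labels, total RNA of whole heart was measured on 1-colour arrays. The deposited values are linear signal intensities for 12488 probe sets, and the software behind them was not given in the sources used here. Arrays had trimmed means (2% off each end) of 1486.5 to 1488.07 without the 66 controls, so the intensities that the authors deposited were not rescaled. Heterozygous pool 2 had no value for the controls. Signals under the 10th percentile (36.4) were raised to it, log2 was taken, and the dimmest 40% of 12422 probe sets were not tested, which left 7453. These were fitted with limma 3.58.1 in R 4.3.3 (lmFit, eBayes with trend, genotype as the term), with Benjamini-Hochberg adjustment over all of them. The fit was tested on simulated data. Log2 signals correlated at 0.971 and 0.970 within genotypes and at 0.845 to 0.856 between them, across probe sets.

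The platform annotation gave 10833 of the 12422 probe sets 1 symbol, 396 several and 1193 none. 1 probe set with several symbols included a translation factor and was left out. All 45 gene IDs were found in RefSeq (GRCm38.p6), and no symbol changed. Promoter sequences are RefSeq's. The translation factors, the lists and the rule for named genes were chosen with earlier results of these data known. Every translation factor is accounted for, with full statistics for those that passed and for Eef1a1, Eef1a2, Eef2, Eef2k, Eif4e, Eif4ebp1, Eif4ebp2, Eif2s1 and Eif4g1 where measured. From each list of other translation genes, up to 4 passing genes with the smallest p in each direction are named. The gene in which the mice were heterozygous is not reported here. Alternatives were other scalings, floors, filters, moderation and thresholds, the pool number as a replicate block, each pool left out, and counting probe sets. A count without design-letter probe sets was added after seeing the data.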

Additional observations from a re-analysis of the deposited data

How the results depend on the processing

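The number of arrays limits the precision. On the deposited scale 10 translation factors fell and 7 rose, and 20 other translation genes fell and 6 rose. Centring on the sarcomere list gave 28 and 1, and 54 and 1, with the median log2 change of the translation factors at -0.74. A common median gave that median as 0.094, and 8 lower and 10 higher calls for the other genes. Unfiltered data gave 2 and 2, and 5 and 2. Without the mean-variance trend the other genes had 13 lower calls, and 4 of the 17 translation factor calls ended (Eif1b, Eif2b4, Eif3l and Eif3m). A threshold of 0.01 gave 6 lower translation factors and 9 lower other genes. With single pools left out, lower translation factors ranged from 3 to 9, higher ones from 2 to 7, lower other genes from 6 to 16 and higher ones from 3 to 5. The low ends came without heterozygous pool 1 (2 higher, 6 and 3) or heterozygous pool 2 (3 lower, 3). These fits rest on 3 arrays and take the lone pool to vary like the others. Eef2 turned to 0.10 with a common median and to 0.081 without wild-type pool 1 (-0.24 without wild-type pool 2). Eif1b, Eif2b4 and Eif4ebp2 turned to -0.17, -0.084 and -0.045 with sarcomere centring. The pools share only numbers, and deviations of same-numbered pools correlated at 0.16 across probe sets. With the replicate block, 11 translation factors fell and 8 rose, and all 17 calls were kept. Counting probe sets, or only those without a design letter, kept both counts of translation factors within 1.5 times. The cause of these differences was not tested, beyond the fewer or more probe sets and arrays in the fits.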
